A study of Homo sapiens with 18 samples.

Results

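MCF10A cells, a long-established and non-tumorigenic line of human breast epithelium, were transfected with an ESR1 cDNA and set against the same cells transfected with a control cDNA. The comparison rests on 6 of the 18 arrays of the study, chosen by their titles: the 3 arrays labelled shNT ESR1 cDNA and the 3 labelled shNT ctrl cDNA. The 3 arrays labelled shNT YAP/TAZ cDNA were also set against the ESR1 cDNA arrays. All 9 of these arrays came from cells infected with a lentivirus for a hairpin without a target (shNT, non-targeting) at a multiplicity of 5, kept for 4 days under 1.5 µg/ml of puromycin, and allowed at least 7 days of recovery. Transient transfection with a lipid reagent brought in the cDNA, and RNA was collected 5 days later from cells in an estrogen-containing medium. The cells were a selected pool under transient transfection, and the share of cells that took up a cDNA is not given in the sources used here. The other 9 arrays (both cDNAs together, and control cDNA with hairpins against LATS1 or labelled as against LATS1 and LATS2) entered the estimate of the spread. RNA was read on whole-transcript arrays, and values are log2 intensities, so that a difference of 1 is a doubling of signal. Nothing in the labels tells whether replicates were grown as separate cultures. The p-values therefore cover the spread among these arrays alone, and the number of arrays limits the precision.

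ESR1 encodes estrogen receptor alpha, a transcription factor of the nuclear receptor family. Once estrogen is bound, it attaches to estrogen response elements in DNA and recruits coactivators such as NCOA1 or corepressors such as NRIP1. In estrogen-dependent breast cancer lines its textbook targets include TFF1, PGR and GREB1, while MCF10A is generally regarded as negative for the receptor. A separate system enters because it moved most in these arrays. Foreign nucleic acid in a cell is detected by sensors such as RIGI and IFIH1, which lead to secretion of interferons. Interferons then act, through factors that include IRF9, on interferon-stimulated response elements, and the genes that carry them encode antiviral effectors.

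ESR1 was read in every array first. Its probe set 8122843 had log2 intensities of 6.34, 6.52 and 6.53 in the ESR1 cDNA arrays, against 5.65, 5.55 and 5.37 in the control cDNA arrays. All 3 ESR1 cDNA arrays lay above all 3 control arrays. The difference was 0.94 ± 0.081 on the log2 scale (SE; adjusted p = 5.1e-07), a 1.92-fold rise in signal, and without ESR1 cDNA replicate 1 it was 1.0 (adjusted p = 3.6e-07). The arrays labelled YAP/TAZ cDNA read 5.77, 5.83 and 5.6, below every ESR1 cDNA array, and ESR1 cDNA minus YAP/TAZ cDNA was 0.73 (adjusted p = 0.00024). The level does not single out the transfected cells: arrays that received the control cDNA averaged 6.40 ± 0.055 with the shLATS1+2 hairpins and 6.37 ± 0.11 with the shLATS1B hairpin (SD, n = 3 each), beside 6.47 ± 0.10 in the ESR1 cDNA arrays. Arrays with both cDNAs averaged 6.03 ± 0.079. A second ESR1 probe set, 8122840, overlapped between the groups, at 4.95, 5.06 and 5.09 in the ESR1 cDNA arrays and 4.99, 5.05 and 5.10 in the control arrays. The place of either probe set along the transcript was not analysed here, and the size of the ESR1 difference is not a measure of how much cDNA the cells carried.

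The label YAP/TAZ cDNA was not borne out by the level of either named gene. YAP1 (probe set 7943398) read 10.76, 10.80 and 10.82 in the arrays labelled YAP/TAZ cDNA, against 10.88, 10.82 and 10.83 in the control cDNA arrays, and 10.78, 10.92 and 10.94 in the arrays with both cDNAs. WWTR1, which encodes TAZ (probe set 8091422), read 9.39, 9.47 and 9.47 in the arrays labelled YAP/TAZ cDNA, against 9.73, 9.57 and 9.42 in the control cDNA arrays. No array labelled YAP/TAZ cDNA lay above the highest control array for either gene, whereas the arrays with both cDNAs read 9.90, 10.05 and 10.03 for WWTR1, above every control array. The arrays with control cDNA and a LATS hairpin also averaged more than the 9.57 of the control arrays, with WWTR1 means of 10.01 ± 0.033 for shLATS1B and 9.80 ± 0.08 for shLATS1+2 (SD, n = 3 each). Where the probe sets lie along these transcripts was not analysed here. Every difference between ESR1 cDNA and YAP/TAZ cDNA below is therefore one from arrays known by their label only.

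**Figure D1:**
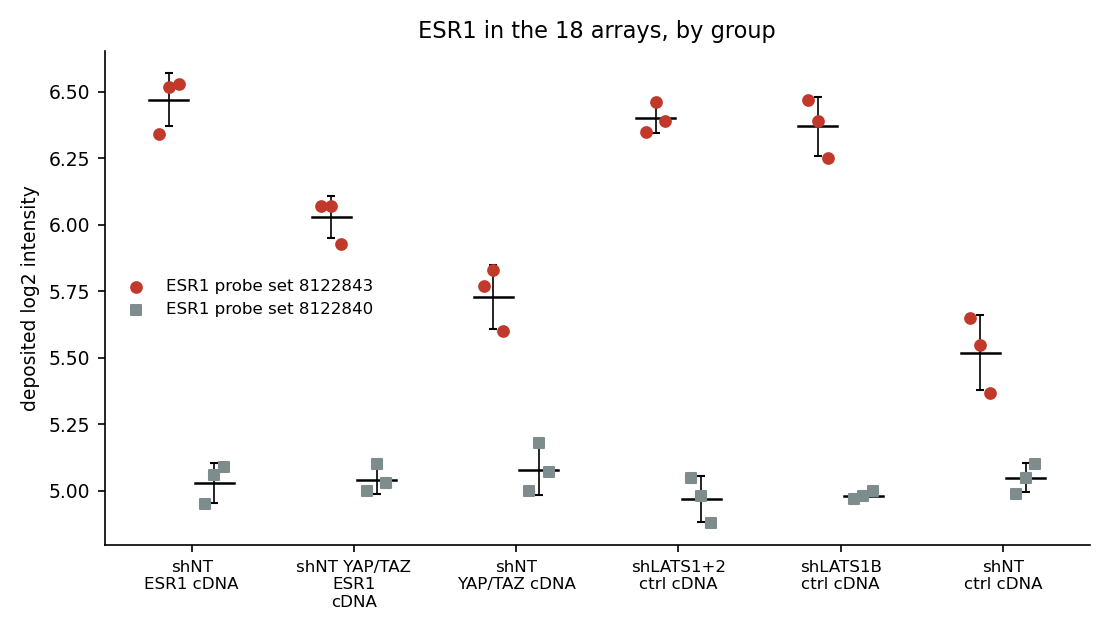
Deposited log2 intensity of both ESR1 probe sets in each of the 18 arrays, by group; points are arrays, horizontal bars are group means and whiskers are 1 SD (n = 3). For probe set 8122843 the ESR1 cDNA arrays (6.34 to 6.53) lie above the control cDNA arrays with shNT (5.37 to 5.65) but beside both groups with LATS hairpins, while probe set 8122840 stays near 5 in every group.

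Genes that mark this line had levels that fit its label in part. Of 8 measured markers, 2 rose and 2 fell at an adjusted p under 0.05 by limma, beside 7.04% and 11.9% of all genes. EGFR (0.36) and CDH1 (0.33) rose, and KRT14 (−0.78) and ITGA6 (−0.53) fell. Without ESR1 cDNA replicate 1 the counts were 2 and 3, beside 11.9% and 17.8% of all genes. KRT5, a basal keratin, read 12.76, 12.53 and 12.51 in the ESR1 cDNA arrays, against 12.79, 12.65 and 12.61 in the control arrays, and CDKN2A, which the line is known to have lost, lay between 5.07 and 5.49 in all 6. FOXA1, a luminal factor listed as low in this line, read 8.12, 8.17 and 8.10 in the ESR1 cDNA arrays, against 8.26, 8.23 and 8.31 in the control arrays, well over the dim level of 5.21 (the percentile 30 of gene means). The 3 ESR1 cDNA arrays did not resemble each other equally. Over the 18404 genes tested, the log2 difference between replicates 2 and 3 had an SD of 0.133, and 4 genes differed by 2-fold or more. Replicate 1 differed from replicates 2 and 3 with SDs of 0.236 and 0.241, and 14 and 46 genes were 2-fold apart. Against the 3 arrays labelled YAP/TAZ cDNA the SDs of replicate 1 were only 0.126 to 0.150, and 6 to 9 genes were 2-fold apart. Replicate 1 therefore lay closer to every array labelled YAP/TAZ cDNA than to either array of its own group. It still differed from the control arrays (SD 0.237 to 0.256, with 121 to 136 genes 2-fold apart), and its ESR1 level was that of its group. When limma estimated a weight for each array from its deviation, this array received 0.213, the lowest of the 18, beside 0.793 and 1.265 for ESR1 cDNA replicates 2 and 3. Counts below are given with and without it. Of 139 named genes besides ESR1, 138 kept their status against control cDNA, called or not called, without this array. The exception was CSF1R, which no longer passed. No named gene called with or without this array changed direction. Without ESR1 cDNA replicate 2, or without replicate 3, 8 of the 139 lost their call.

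**Figure D2:**
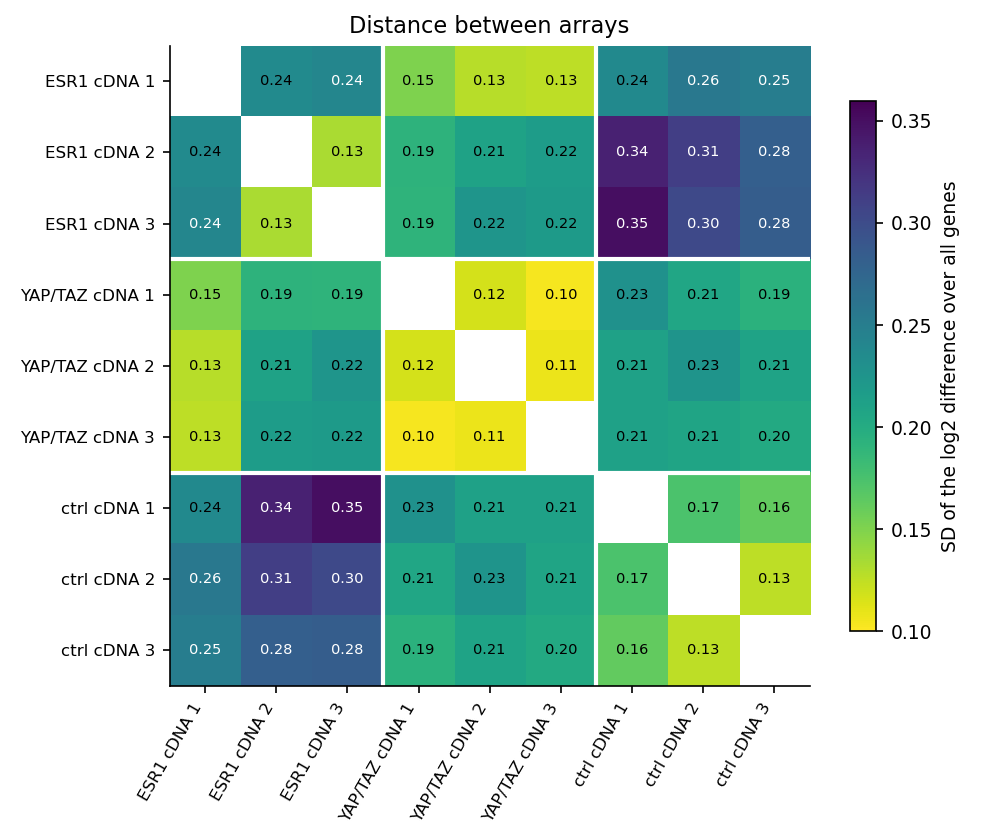
Standard deviation, over 18404 genes, of the log2 difference between each pair of the 9 arrays with shNT and a single or control cDNA; yellow is near and dark blue is far. The row of ESR1 cDNA replicate 1 is nearest to the arrays labelled YAP/TAZ cDNA (0.126 to 0.150) and farther from ESR1 cDNA replicates 2 and 3 (0.236 and 0.241).

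At an adjusted p under 0.05, ESR1 cDNA against control cDNA changed 3487 genes, 18.9% of those tested, of which 1295 (7.04%) rose and 2192 (11.9%) fell. Most of these differences were small: 446 (2.42%) reached 1.5-fold, and 257 genes (1.4%) rose and 189 (1.03%) fell by that much, and 111 (0.603%) rose and 19 (0.103%) fell by 2-fold or more. Without replicate 1 the count was 5461 genes (29.7%), 2189 (11.9%) higher and 3272 (17.8%) lower. Without replicate 2 it was 2299. The first 2 of these counts shared 3291 genes, which is 94.4% of the first and 60.3% of the second, and each of the shared genes moved the same way in both. The median difference over all genes was 0.002. With each array centred on its median, that median was −0.05. The calls then split into 882 higher and 3159 lower (21.8% higher, beside 37.1% in the values as deposited). The balance of small rises and falls therefore depends on the scaling. List counts against control cDNA below stand beside 7.04% higher and 11.9% lower of all genes, or 11.9% and 17.8% without replicate 1.

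Interferon-stimulated effector genes had the highest median difference of the 24 gene lists examined. Of 45 measured, 40 rose and none fell, and the other 5 (MX1, EPSTI1, IFITM2, RTP4 and CH25H) did not pass the test. The list had a median difference of 1.63, beside 0.002 for all genes, and the same 40 and 0 were counted without replicate 1, with a median of 1.68. The mean level over the list was 9.53, 9.45 and 9.46 in the ESR1 cDNA arrays, against 7.73, 7.90 and 7.78 in the control cDNA arrays. In 41 of the 45 genes all 3 ESR1 cDNA arrays lay above all 3 control arrays, a pattern seen in 10.5% of all genes. Because the arrays read whole cell populations, more cells of a responding kind and more RNA per cell cannot be told apart.

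IFIT1, which binds foreign RNA lacking the cap modification of host messages, had the largest rise of any gene in this comparison. It read 10.42, 10.78 and 10.84 in the ESR1 cDNA arrays, against 5.14, 6.17 and 5.61 in the control arrays, a difference of 5.04 ± 0.19 (adjusted p = 2e-11). The lowest ESR1 cDNA array lay far above the highest control array. OAS2, which makes oligoadenylates that activate RNase L, read 11.09, 10.73 and 10.77 in the ESR1 cDNA arrays, against 6.54, 6.95 and 6.41 in the control arrays, a difference of 4.23 ± 0.12 (adjusted p = 3e-13). RSAD2, the antiviral enzyme viperin, read 8.81, 8.87 and 9.06 in the ESR1 cDNA arrays, against 5.41, 5.38 and 5.54 in the control arrays, a difference of 3.47 ± 0.093 (adjusted p = 2.8e-13). In both genes, too, the groups were widely apart, and replicate 1 was no lower than its fellows in OAS2.

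SAMD9L, an interferon-induced restriction factor, read 9.64, 9.48 and 9.47 in the ESR1 cDNA arrays, against 6.13, 6.45 and 6.11 in the control arrays (3.30 ± 0.086, adjusted p = 2.5e-13). IFITM1, a membrane protein that blocks virus entry, read 12.66, 12.51 and 12.63 in the ESR1 cDNA arrays, against 9.74, 9.73 and 9.67 in the control arrays (2.89 ± 0.045, adjusted p = 2.3e-16). These arrays scattered little within either group. Among the 15 largest rises stood also IFIT3 (3.18), IFI44L (2.87), IFI44 (2.70), XAF1 (2.68), OAS1 (2.56), OASL (2.55) and the RNA helicase DDX60 (2.44). Without replicate 1 the differences of IFIT1, OAS2 and RSAD2 were 5.17, 4.11 and 3.52. CLTRN encodes the transport protein collectrin and is not one of the listed effectors. It read 7.89, 8.77 and 9.03 in the ESR1 cDNA arrays, against 5.61, 5.81 and 5.81 in the control arrays, a difference of 2.82 (3.16 without replicate 1), and replicate 1 was well below its fellows.

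**Figure D3:**
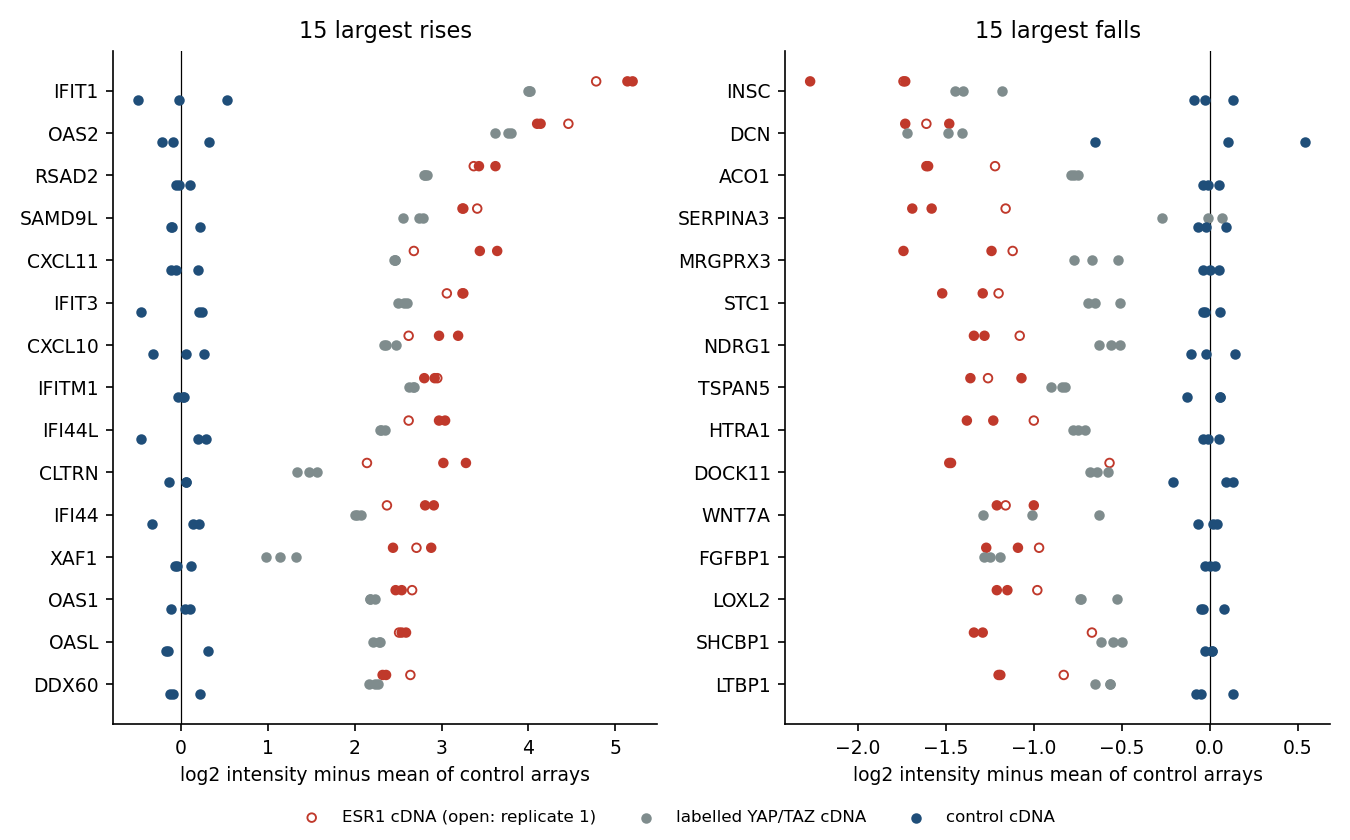
Log2 intensity minus the mean of the control arrays for the 15 largest rises (left) and 15 largest falls (right) of ESR1 cDNA against control cDNA; each point is 1 array and open red circles are ESR1 cDNA replicate 1. The 30 genes were chosen so that all red points lie beyond the blue control points. They run from IFIT1 (difference 5.04) and INSC (difference −1.92) at the top. The grey YAP/TAZ cDNA points of most genes lie between the red and blue ones or beside the red ones.

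The promoters of these genes, taken as the 300 bases around the start site in RefSeq (GRCh38.p14), were searched on both strands for the letters GAAANNGAAA, a core of the interferon-stimulated response element (TTTCNNTTTC on the other strand). Of 37 effector genes with a promoter in that table, 26 (70.3%) held a match, as did 7 of 13 of the 15 largest rises (53.8%) and 8 of 14 antigen presentation genes (57.1%). The letters occurred in 3.04% of the promoters of tested genes and in 3.65% of all 27305 promoters, and in none of 10 promoters among the 15 largest falls. Of 155 promoters of genes called lower by at least 1.5-fold, 2 (1.29%) held them. The perfect estrogen response element GGTCANNNTGACC, which reads the same on both strands, occurred in 18 of the 27305 promoters (0.0659%). It was in 3 of the 14228 promoters of tested genes (0.0211%). None of the promoters of the effectors, the 15 largest rises or the estrogen response list held it. With an element this rare, its absence from such small sets tells nothing about them. A match describes these letters only, and a missing match says nothing about binding elsewhere. The promoters of IFIT1 (chr10:89392373-89392672, plus strand), IFIT3 (chr10:89327747-89328046, plus strand) and IFITM1 (chr11:313790-314089, plus strand) are printed because these genes rose most among those with paired matches, and that of XAF1 as a gene that rose without one (chr17:6755796-6756095, plus strand). Matches are in capitals.
IFIT1: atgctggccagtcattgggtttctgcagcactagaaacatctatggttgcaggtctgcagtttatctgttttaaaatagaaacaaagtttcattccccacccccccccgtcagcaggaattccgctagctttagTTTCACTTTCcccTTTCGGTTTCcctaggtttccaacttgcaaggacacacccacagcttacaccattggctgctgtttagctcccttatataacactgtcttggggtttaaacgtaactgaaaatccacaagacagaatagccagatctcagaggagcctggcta
IFIT3: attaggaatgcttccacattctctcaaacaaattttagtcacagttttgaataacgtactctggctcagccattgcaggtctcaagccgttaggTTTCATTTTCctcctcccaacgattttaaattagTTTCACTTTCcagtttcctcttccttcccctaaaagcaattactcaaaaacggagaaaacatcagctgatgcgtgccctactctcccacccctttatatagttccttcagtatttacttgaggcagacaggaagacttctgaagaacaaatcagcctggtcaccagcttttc
IFITM1: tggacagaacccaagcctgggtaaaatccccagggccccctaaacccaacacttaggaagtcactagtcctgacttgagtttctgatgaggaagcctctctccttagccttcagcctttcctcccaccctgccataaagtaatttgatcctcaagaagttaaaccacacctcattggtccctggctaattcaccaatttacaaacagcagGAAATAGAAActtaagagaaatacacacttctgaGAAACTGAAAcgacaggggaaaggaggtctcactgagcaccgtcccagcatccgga
XAF1: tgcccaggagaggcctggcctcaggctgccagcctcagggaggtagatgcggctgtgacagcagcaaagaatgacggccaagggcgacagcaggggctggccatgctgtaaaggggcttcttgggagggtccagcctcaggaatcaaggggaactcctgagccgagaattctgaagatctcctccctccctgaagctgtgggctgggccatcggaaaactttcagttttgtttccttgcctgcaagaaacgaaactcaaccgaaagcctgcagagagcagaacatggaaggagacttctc

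Genes upstream of the effectors rose in part. Of 18 nucleic acid sensors and their partners, 9 rose and none fell, beside 7.04% and 11.9% of all genes. The same counts held without replicate 1, and the list median was 0.26 with all arrays. RIGI, a sensor of RNA with a free triphosphate end, read 10.65, 10.56 and 10.55 in the ESR1 cDNA arrays, against 8.58, 8.88 and 8.43 in the control arrays (1.96 ± 0.086, adjusted p = 9.2e-11). IFIH1, a sensor of long double-stranded RNA, read 9.0, 8.60 and 8.72 in the ESR1 cDNA arrays, against 7.08, 6.92 and 6.43 in the control arrays (1.96 ± 0.13, adjusted p = 1.5e-08). Both were separate from the control arrays in all 3 replicates. The nucleotide-hydrolysing restriction factor SAMHD1 (1.47), the helicase-like ZNFX1 (1.17) and the endosomal RNA receptor TLR3 (1.16) followed, and the DNA pathway adaptor STING1 rose by 0.25.

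Among 26 interferon ligands, receptors and signalling genes, 7 rose and 2 fell (7 and 4 without replicate 1), with a median of 0.07. IRF9, a DNA-binding factor of the interferon response, read 9.89, 9.64 and 9.75 in the ESR1 cDNA arrays, against 8.01, 8.55 and 8.21 in the control arrays (1.50, adjusted p = 2.2e-08). IRF7 (0.87), the receptor subunit IFNGR1 (0.82), NMI (0.81) and IRF1 (0.75) also rose, and the kinase TYK2 (−0.24) and IFNGR2 (−0.11) fell. Of the interferons themselves, IFNB1 read 4.42, 4.35 and 4.40 in the ESR1 cDNA arrays, against 4.29, 4.35 and 4.36 in the control arrays, and did not pass the test (0.05, adjusted p = 0.43). These values lie under the dim level and give no order. IFNL1, an interferon that acts mainly on epithelia, read 6.50, 6.43 and 6.45 in the ESR1 cDNA arrays, against 6.02, 5.78 and 6.18 in the control arrays (0.47, adjusted p = 0.00031), with no overlap, and IFNL3 rose by 0.34 (adjusted p = 0.04).

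Antigen presentation genes rose in 12 of 16 cases and fell in none, again with and without replicate 1 (median 0.47). PSMB9, a subunit of the immunoproteasome that cuts peptides for display, read 9.98, 9.98 and 10.06 in the ESR1 cDNA arrays, against 8.32, 8.49 and 8.48 in the control arrays (1.58 ± 0.057, adjusted p = 8.5e-12). B2M, the invariant light chain of class I molecules, read 11.72, 12.13 and 12.09 in the ESR1 cDNA arrays, against 10.77, 11.01 and 11.04 in the control arrays (1.04, adjusted p = 1.8e-06). The groups were apart in both genes, and replicate 1 was the lowest of its group for B2M. TAPBPL (1.12), PSMB8 (1.04) and the peptide transporter TAP1 (0.95) rose with them. The class I heavy chain genes of the list were not analysed here. Of 15 guanylate-binding and other genes known from the interferon gamma response, 11 rose and none fell, with and without replicate 1 (median 0.56), led by IRF1, the checkpoint ligand CD274 (0.74) and GBP3 (0.62).

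Of 34 chemokines and cytokines, 16 rose and none fell (17 and 1 without replicate 1), while the list median was 0.14. With dim genes left out it was 16 of 26 and a median of 0.43. CXCL11, a CXCR3 ligand that attracts T cells, read 8.29, 9.05 and 9.25 in the ESR1 cDNA arrays, against 5.49, 5.55 and 5.80 in the control arrays (3.25 ± 0.21, adjusted p = 1.2e-08), and CXCL10, a ligand of the same receptor, differed by 2.93. TNFSF10, the death ligand TRAIL, read 8.71, 9.26 and 9.62 in the ESR1 cDNA arrays, against 6.54, 6.90 and 7.05 in the control arrays (2.37, adjusted p = 5.7e-07). In both CXCL11 and TNFSF10 replicate 1 was the lowest of its group yet above every control array. CCL5, another T cell attractant, read 7.93, 7.92 and 8.05 in the ESR1 cDNA arrays, against 5.55, 5.70 and 5.79 in the control arrays (2.29, adjusted p = 1.9e-11). Of 23 NF-kB regulators and targets, 11 rose and 1 fell (10 and 3 without replicate 1), and 7 rose with only the 6 arrays fitted. The largest were complement factor CFB (2.24), the iron-carrier-binding protein LCN2 (1.88) and the acute phase protein SAA1 (1.23). The faller was NFKB1 (−0.40). Of 20 cell death genes, 7 rose and 1 fell (7 and 2 without replicate 1, 5 and 4 with arrays centred, 3 and 1 with only the 6 arrays), and the 2 largest rises, XAF1 and TNFSF10, also belong to the lists above.

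The estrogen response list had a median close to that of all genes. Of 34 measured genes 6 rose and 3 fell, where 7.04% and 11.9% of all genes did. The same numbers were called without replicate 1, where 11.9% and 17.8% of all genes rose and fell. The median was 0.02, and −0.03 with arrays centred. The mean level over the list was 7.37, 7.31 and 7.27 in the ESR1 cDNA arrays, against 7.31, 7.21 and 7.25 in the control arrays, which overlap. Of the textbook targets, TFF1, a secreted trefoil peptide, read 5.40, 5.41 and 5.44 in the ESR1 cDNA arrays, against 5.39, 5.21 and 5.45 in the control arrays (0.07, adjusted p = 0.49). PGR, the progesterone receptor, read 4.69, 4.59 and 4.56 in the ESR1 cDNA arrays, against 4.64, 4.53 and 4.61 in the control arrays (0.02, adjusted p = 0.83). GREB1, a receptor cofactor, read 5.00, 4.92 and 5.00 in the ESR1 cDNA arrays, against 4.93, 4.97 and 5.03 in the control arrays (0.00, adjusted p = 0.96). In all of these the groups overlapped, and PGR and GREB1 lay under the dim level in all 6 arrays, so that a small change in either was not detectable here. XBP1 (−0.09), MYC (−0.03), CCND1 (0.12), IGFBP4 (−0.00) and CXCL12 (0.07) did not pass the test either, and PDZK1 was not analysed here.

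RERG, a small GTPase that restrains growth and is estrogen-regulated in breast cells, had the largest rise of the list. It read 7.6, 7.35 and 7.49 in the ESR1 cDNA arrays, against 6.07, 6.27 and 6.33 in the control arrays (1.26, adjusted p = 7.5e-09). The arrays labelled YAP/TAZ cDNA read 7.26, 7.29 and 7.19, and the direct difference of 0.23 did not pass the test (adjusted p = 0.21). STC2, a secreted glycoprotein hormone, read 7.25, 7.35 and 7.42 in the ESR1 cDNA arrays, against 6.94, 6.85 and 6.90 in the control arrays (0.44, adjusted p = 2.9e-05). NRIP1, the corepressor named above, read 9.97, 9.93 and 9.88 in the ESR1 cDNA arrays, against 9.60, 9.64 and 9.58 in the control arrays (0.32, adjusted p = 8e-05). For both genes the groups did not overlap. The kinase SGK1 (0.48), CCN5 (0.39) and TPBG (0.18) also rose. The transcription factor MYB read 7.13, 6.57 and 6.70 in the ESR1 cDNA arrays, against 7.41, 7.37 and 7.35 in the control arrays (−0.58, adjusted p = 0.00097). The carbonic anhydrase CA12 (−0.43) and the immediate early gene FOS (−0.40) fell too. Of 21 receptor partners, the acetyltransferase EP300 (0.30, adjusted p = 0.013) and NRIP1 rose and SAFB fell (−0.45, adjusted p = 0.048), 2 higher and 1 lower (2 and 4 without replicate 1), and FOXA1, GATA3 and ESR2 did not pass the test.

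Genes of DNA replication and mitosis that passed the test mostly fell. Of 36 measured, 25 fell and 3 rose (28 and 3 without replicate 1), beside 11.9% and 7.04% of all genes. When only the 6 arrays were fitted, 15 fell and none rose. The median was −0.39, or −0.47 without replicate 1. BUB1B, a kinase of the spindle checkpoint, read 9.30, 8.97 and 8.77 in the ESR1 cDNA arrays, against 10.10, 10.12 and 10.03 in the control arrays (−1.07 ± 0.12, adjusted p = 9.9e-06). KIF11, a spindle motor, read 9.71, 9.12 and 9.08 in the ESR1 cDNA arrays, against 10.15, 10.06 and 9.85 in the control arrays (−0.72, adjusted p = 0.0012). Every ESR1 cDNA array was below every control array, and replicate 1 was the one nearest to the controls. The centromere motor CENPE (−0.74), KIF20A (−0.70) and the kinase AURKB (−0.69) fell likewise, while the G1/S cyclins CCNE2 (0.51) and CCNE1 (0.29) and their regulator E2F1 (0.26) rose. Of 24 p53 targets 12 rose and 2 fell (12 and 3 without replicate 1; median 0.20), among them PMAIP1, which promotes apoptosis (0.97), TP53INP1 (0.83), GDF15 (0.59), GADD45B (0.56) and the cell cycle inhibitor CDKN1A (0.37).

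Hypoxia and cholesterol synthesis genes that passed the test mostly fell, and stress response genes went both ways. Of 23 hypoxia and glycolysis genes, 14 fell and 2 rose (16 and 2 without replicate 1; median −0.19), beside 11.9% and 7.04% of all genes. This count rests on single arrays: 9 fell without ESR1 cDNA replicate 2 or control replicate 2, 8 without ESR1 cDNA replicate 3 or control replicate 1, and 4 with only the 6 arrays. NDRG1, a stress gene induced by low oxygen, read 9.31, 9.05 and 9.11 in the ESR1 cDNA arrays, against 10.53, 10.37 and 10.28 in the control arrays (−1.24, adjusted p = 1.5e-07), with a wide gap between the groups. ALDOC, a glycolytic aldolase (−1.05), and the collagen hydroxylase P4HA1 (−0.66) fell as well, whereas ADM (0.62) and VEGFA (0.17), which encode secreted vascular factors, rose. Of 18 cholesterol synthesis genes 7 fell and none rose (11 and 3 without replicate 1, 4 and 0 with only the 6 arrays; median −0.17), led by HMGCS1 (−0.49) and MVD (−0.41). Of 22 stress response genes 7 rose and 3 fell (8 and 7 without replicate 1; 4 and 3 without control replicate 1; 4 and 0 with only the 6 arrays). With arrays centred the split was 4 and 6, and the median was 0.03, or −0.02 without replicate 1. DDIT3, a transcription factor of the unfolded protein response, read 6.85, 7.23 and 7.49 in the ESR1 cDNA arrays, against 5.51, 5.71 and 5.55 in the control arrays (1.60, adjusted p = 9.2e-07), and its target CHAC1 differed by 1.35. Both groups were apart, with replicate 1 lowest among the ESR1 cDNA arrays for each gene.

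Luminal and epidermal genes that passed the test mostly rose, and basal and mesenchymal ones mostly fell, with list medians near that of all genes. Of 28 luminal epithelial genes 8 rose and none fell (8 and 3 without replicate 1; 6 and 4 with arrays centred), beside 7.04% and 11.9% of all genes, and 1 of the 8 was ESR1 itself. EHF, an epithelial transcription factor, read 9.42, 9.11 and 9.28 in the ESR1 cDNA arrays, against 7.41, 7.46 and 7.46 in the control arrays (1.82 ± 0.074, adjusted p = 4e-11), with a wide gap. The mucin MUC1 (1.09) and the surface protein CD24 (0.95) rose as well. Of 20 basal epithelial genes 5 fell and 1 rose (7 and 2 without replicate 1), among them the keratins KRT15 (−1.02) and KRT14 (−0.78) and the integrin ITGA6 (−0.53). Of 24 mesenchymal genes 6 fell and 2 rose (5 and 4 without replicate 1), including VIM (−0.76) and, upward, the matrix protein FN1 (1.25). Of 32 epidermal differentiation genes 8 rose and none fell (9 and 1 without replicate 1, 8 and 3 with arrays centred, 5 and 0 with only the 6 arrays), led by S100A8 (1.38). The medians of these 4 lists lay between −0.02 and 0.06.

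YAP/TAZ targets rose in 10 of 26 cases and fell in 3 (10 and 5 without replicate 1; median 0.13), led by CCN1 (1.16), AMOTL2 (1.01) and ANKRD1 (0.79, from a control level under the dim level). YAP1 itself read 10.78, 10.44 and 10.45 in the ESR1 cDNA arrays, against 10.88, 10.82 and 10.83 in the control arrays (−0.28, adjusted p = 0.014), and WWTR1 read 9.44, 9.11 and 9.07 in the ESR1 cDNA arrays, against 9.73, 9.57 and 9.42 in the control arrays (−0.37, adjusted p = 0.0078). For WWTR1 replicate 1 overlapped the control arrays, and for YAP1 it lay just below them. Of 24 Hippo components 2 rose and 5 fell, beside 7.04% and 11.9% of all genes. The counts were 1 and 6 without replicate 1, and 2 and 2 without ESR1 cDNA replicate 2. With only the 6 arrays they were 1 and 1. LATS1 (−0.11, adjusted p = 0.39) and LATS2 (0.11, adjusted p = 0.25) did not pass the test. Of 22 leukocyte and endothelial genes, listed as markers of cells foreign to this line, 2 rose and none fell, beside 7.04% and 11.9% of all genes. CD14 rose by 0.49 and CSF1R by 0.20, and CD14 alone passed without replicate 1. CD14 read 9.81, 9.26 and 9.54 in the ESR1 cDNA arrays, against 9.11, 9.02 and 9.01 in the control arrays. It was thus well over the dim level in both groups and did not behave as a gene foreign to this line. The 22 genes had mean levels of 5.51 to 5.52 in the ESR1 cDNA arrays and 5.47 to 5.52 in the control arrays. PTPRC, the defining leukocyte gene, lay between 4.37 and 4.51 in all of these arrays, under the dim level.

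**Figure D4:**
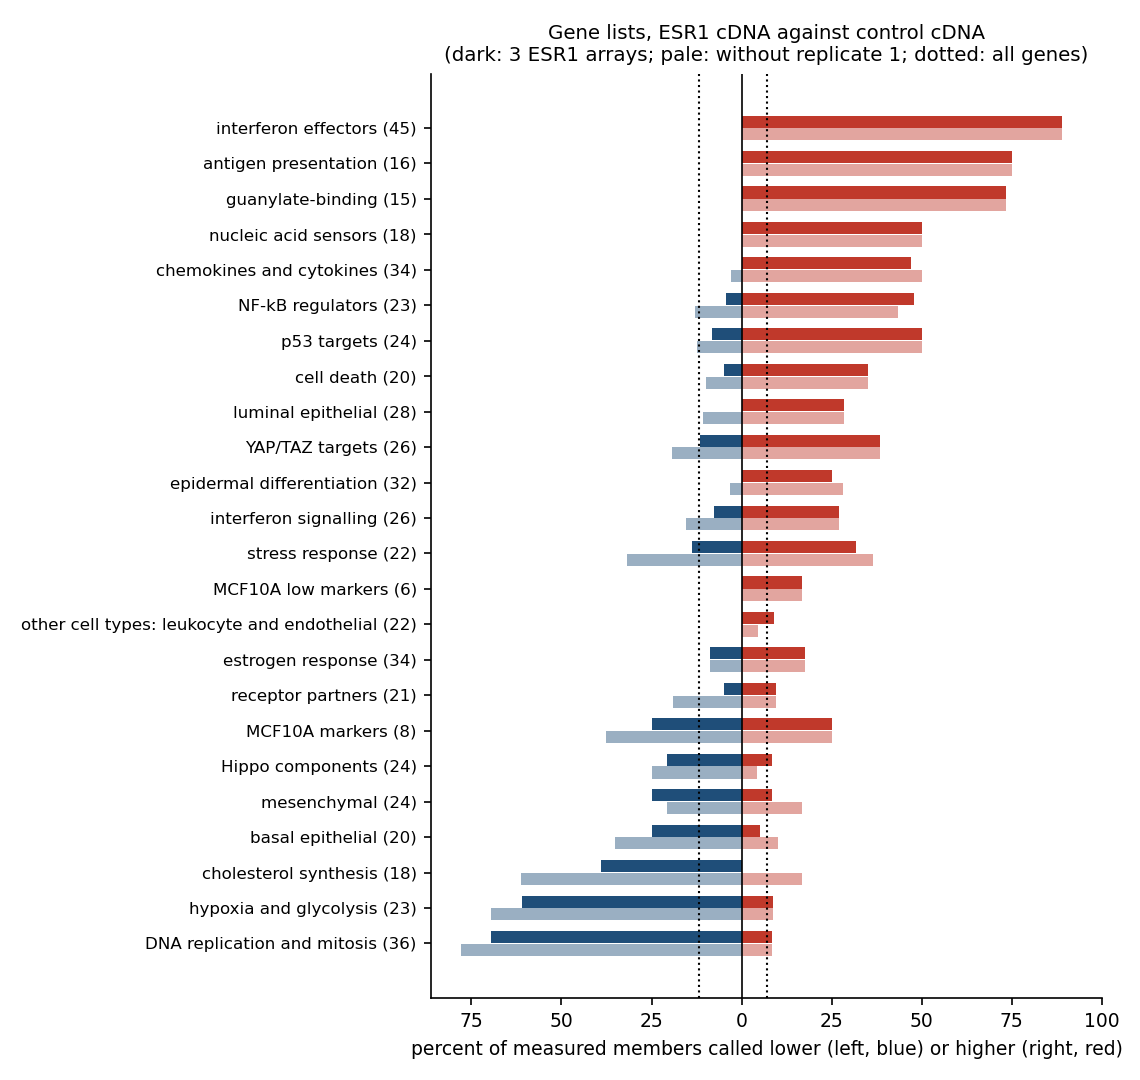
Percent of the measured members of each gene list called lower (blue, to the left) or higher (red, to the right) in ESR1 cDNA against control cDNA, at an adjusted p under 0.05; pale bars leave out ESR1 cDNA replicate 1, numbers in brackets are measured genes, and dotted lines are the shares of all genes (11.9% lower, 7.04% higher). Interferon effectors (40 of 45 higher) stand at one end and DNA replication and mitosis (25 of 36 lower) at the other, and the estrogen response list (6 higher and 3 lower of 34) lies between them.

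The 15 largest falls were smaller than the rises and came from no single list. INSC, an adaptor for the orientation of dividing cells, read 6.54, 6.01 and 6.55 in the ESR1 cDNA arrays, against 8.25, 8.41 and 8.19 in the control arrays (−1.92 ± 0.12, adjusted p = 6.8e-09). SERPINA3, a secreted protease inhibitor, read 9.08, 8.55 and 8.66 in the ESR1 cDNA arrays, against 10.17, 10.22 and 10.33 in the control arrays (−1.48 ± 0.13, adjusted p = 9.3e-07). ACO1, an aconitase that doubles as an iron-responsive RNA-binding protein, read 9.10, 8.71 and 8.72 in the ESR1 cDNA arrays, against 10.37, 10.28 and 10.31 in the control arrays (−1.48, adjusted p = 1.1e-08). The 15 falls, like the 15 rises, were chosen among called genes without overlap between the groups. For SERPINA3 and ACO1 replicate 1 was the highest of its group. The matrix proteoglycan DCN read 5.06, 4.94 and 5.19 in the ESR1 cDNA arrays, against 6.02, 6.77 and 7.21 in the control arrays (−1.60, adjusted p = 1.8e-05). The ESR1 cDNA arrays lay under the dim level for this gene, so the size of its fall is uncertain. MRGPRX3 (−1.37), the secreted hormone STC1 (−1.33), NDRG1, TSPAN5 (−1.23), the secreted protease HTRA1 (−1.20), DOCK11 (−1.17), the ligand WNT7A (−1.12), FGFBP1 (−1.11), the collagen cross-linking enzyme LOXL2 (−1.11), SHCBP1 (−1.10) and LTBP1 (−1.08) made up the rest. In DOCK11 replicate 1 stood apart most, at 6.96 beside 6.05 and 6.06 for replicates 2 and 3, against 7.66, 7.62 and 7.32 in the control arrays.

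The ESR1 cDNA arrays were also compared directly with the arrays labelled YAP/TAZ cDNA, in which, as given above, neither YAP1 nor WWTR1 was above the control level. Both groups were read against the same 3 control arrays, so the shared rise over those is not a result in itself. ESR1 cDNA against YAP/TAZ cDNA changed 111 genes, 0.603% of those tested, 58 (0.315%) higher and 53 (0.288%) lower. Without ESR1 cDNA replicate 1 the count was 2947 (16%), 973 (5.29%) higher and 1974 (10.7%) lower, and all 111 were among them. Leaving out any other single array of the 2 groups gave 48 to 60 calls, and a fit of only the 6 arrays compared gave 2. With arrays centred on their medians the calls split into 44 higher and 69 lower (38.9% higher, beside 52.3% in the values as deposited). The number of genes that separate these groups therefore rests on replicate 1 and on the estimate of the spread, while the order of the levels below is read from the arrays.

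The interferon effectors had intermediate mean levels in the arrays labelled YAP/TAZ cDNA. The mean over the list was 9.53, 9.45 and 9.46 in the ESR1 cDNA arrays and 9.09, 9.16 and 9.16 in the arrays labelled YAP/TAZ cDNA, with 7.73, 7.90 and 7.78 in the control arrays. All 3 arrays labelled YAP/TAZ cDNA were above all 3 control arrays for 40 of the 45 genes, an ordering seen in 10.1% of all genes, and all 3 ESR1 cDNA arrays above all 3 arrays labelled YAP/TAZ cDNA for 32. An ordering of all 3 ESR1 cDNA arrays above all 3 arrays labelled YAP/TAZ cDNA was seen in 5.83% of all genes. Of the 45, 16 were higher in the direct test and none was lower (26 and 1 without replicate 1), with a median of 0.29. Leaving out any other single array of these groups gave 9 or 10 higher, and only the 6 arrays gave 1, so the count ranged from 1 to 27 over the settings tried while the median stayed between 0.26 and 0.31. XAF1, which antagonises inhibitors of apoptosis, read 8.10, 7.83 and 8.27 in the ESR1 cDNA arrays, against 6.37, 6.71 and 6.53 in the arrays labelled YAP/TAZ cDNA (1.53, adjusted p = 9.4e-06). MX2, a dynamin-like restriction factor, read 7.89, 7.53 and 7.29 in the ESR1 cDNA arrays, against 6.11, 6.54 and 6.46 in the arrays labelled YAP/TAZ cDNA (1.2, adjusted p = 0.00024). IFIT1 read 10.42, 10.78 and 10.84 in the ESR1 cDNA arrays, against 9.66, 9.65 and 9.63 in the arrays labelled YAP/TAZ cDNA (1.04, adjusted p = 0.02). XAF1, MX2 and IFIT1 were chosen among called genes without overlap between the groups, so their separation is not a further result. CCL5, by contrast, read 7.93, 7.92 and 8.05 in the ESR1 cDNA arrays, against 7.96, 7.93 and 8.08 in the arrays labelled YAP/TAZ cDNA (−0.03).

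Beyond the effectors, CLTRN (1.36, adjusted p = 0.0063), the G protein regulator RGS2 (0.99, adjusted p = 0.02), the cytokine IL24 (0.90, adjusted p = 0.0001) and the lipoprotein receptor OLR1 (0.81, adjusted p = 0.012) were higher with ESR1 cDNA than with YAP/TAZ cDNA. GMPR, an enzyme of purine salvage, read 8.29, 8.16 and 8.31 in the ESR1 cDNA arrays, against 7.24, 7.43 and 7.27 in the arrays labelled YAP/TAZ cDNA (0.94, adjusted p = 9.4e-06), with 6.26, 6.14 and 6.05 in the control arrays. For this gene the arrays labelled YAP/TAZ cDNA also lay above every control array. The genes named here from CLTRN to INSC were chosen among called genes without overlap between ESR1 and YAP/TAZ cDNA arrays. Their separation is therefore not a further result. Of the genes lower with ESR1 cDNA, SERPINA3 stood out by size. It read 9.08, 8.55 and 8.66 in the ESR1 cDNA arrays, against 10.31, 9.97 and 10.23 in the arrays labelled YAP/TAZ cDNA (−1.41, adjusted p = 6.2e-05), and the arrays labelled YAP/TAZ cDNA overlapped the control arrays at 10.17, 10.22 and 10.33. CHI3L1, a secreted chitinase-like protein, read 5.32, 5.35 and 5.67 in the ESR1 cDNA arrays, against 6.37, 6.11 and 6.05 in the arrays labelled YAP/TAZ cDNA (−0.73, adjusted p = 0.049). Its ESR1 cDNA arrays overlapped the control arrays, at 5.75, 5.56 and 5.80. STC1 (−0.72), ACO1 (−0.71), NDRG1 (−0.66), MRGPRX3 (−0.71), PDK4, an inhibitor of pyruvate use (−0.64), and INSC (−0.57) were lower too. In the estrogen response list CA12 (−0.33) and FOS (−0.33) were lower and none was higher (1 higher and 4 lower without replicate 1), and none of the 36 replication and mitosis genes passed limma's test in either direction. At an unadjusted p under 0.05 by limma, 1 of the 36 was higher and 17 were lower, beside 919 and 1610 of all 18404 genes. Without replicate 1 the adjusted test called 2 of the 36 higher and 20 lower, beside 5.29% and 10.7% of all genes.

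The array that stood apart and the rest of its group also differed in a class of small RNAs. The 192 small nucleolar and Cajal body RNA genes on the array, which guide chemical modification of ribosomal and spliceosomal RNA, had medians of −0.01, 0.17 and 0.34 above the control mean in ESR1 cDNA replicates 1, 2 and 3. The medians were 0.07, −0.03 and 0.01 in the 3 arrays labelled YAP/TAZ cDNA, against −0.11, 0.07 and 0.05 in the control arrays. Replicates 2 and 3 were above all other arrays and replicate 1 was not. Of the 192, 31 (16.1%) rose, beside 7.04% of all genes, and 1 fell against control cDNA. Without replicate 1, 78 of them (40.6%) rose, beside 11.9% of all genes, and none fell. Without ESR1 cDNA replicate 2 or 3 or control replicate 1, 12, 10 and 13 of the 192 rose, and with only the 6 arrays 2 did. Of all 18404 genes, 948, 899 and 1100 rose in the former settings, and 465 with only the 6 arrays. In these settings the small RNA counts were thus near or under the share of all genes. Against YAP/TAZ cDNA 0 passed limma's test with all arrays. At an unadjusted p under 0.05 by limma, 49 of the 192 were higher and 1 lower, beside 919 and 1610 of all 18404 genes. Without replicate 1, 66 were higher there, beside 5.29% of all genes, and 1 was lower. SNORD78 read 9.61, 10.69 and 10.72 in the ESR1 cDNA arrays, against 8.79, 9.24 and 9.40 in the control arrays (1.2, adjusted p = 0.002), with replicates 2 and 3 well above the rest. The falls leaned the other way by gene size. Of the 4594 genes with the longest genomic span, 18.1% fell and 5.31% rose, while 5.55% fell and 7.31% rose of the 4594 with the shortest. The array medians of the longest genes were −0.01, −0.05 and −0.05 in ESR1 cDNA replicates 1, 2 and 3. The part of these small RNA and span differences in the results above was not tested.

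**Figure D5:**
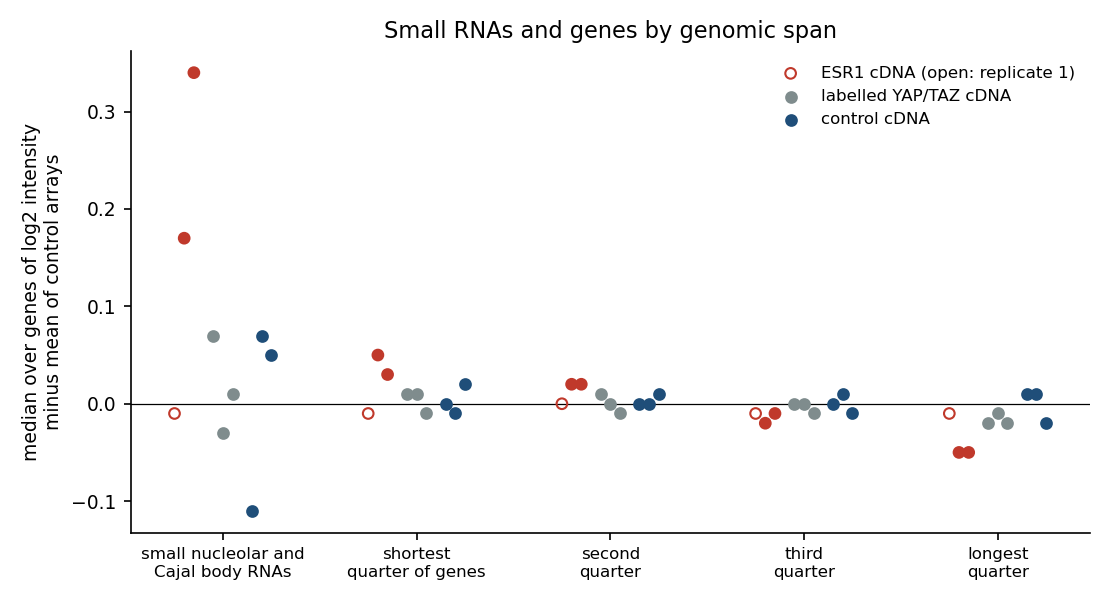
Median over genes of log2 intensity minus the mean of the control arrays, for the 192 small nucleolar and Cajal body RNA genes and for 18376 genes in 4 groups of 4594 by genomic span; each point is 1 array and open red circles are ESR1 cDNA replicate 1. Filled red circles (replicates 2 and 3) are highest for the small RNAs, at 0.17 and 0.34, and lowest for the longest genes, at −0.05 each, and the open circle is at −0.01 in both.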

How the data were processed

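For 32321 probe sets, the submitters deposited log2 intensities of every array, ranging from 3.561 to 13.747. The authors used the R package affy, per the submitters' processing notes. How background, normalization and summary were handled is not given in the sources used here, and the base of the log was read from the values. Array medians lay between 5.494 and 5.619. The platform annotation gave 1 gene symbol for 19158 probe sets, several for 1388 and none for 11775, and RefSeq (GRCh38.p14) updated the names of 19128. Where several probe sets shared a gene (637 of 18404 genes), the brightest over all arrays was used.

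All 18 arrays entered 1 model with a mean per group in R 4.3.3 with limma 3.58.1 (lmFit, eBayes), with 12 residual degrees of freedom and 3.94 added by moderation. Tests were two-sided, with Benjamini-Hochberg adjustment over all genes and a threshold of 0.05. Genes at a mean under 5.21, the percentile 30, were treated as dim. Genes named are the targeted genes, the 15 largest rises and falls without overlap between groups, up to 5 called members of each list, 11 estrogen targets, and the 8 largest differences of each sign from YAP/TAZ cDNA. Other named genes were chosen after their values were seen. The comparison, its gene lists and its tests were chosen with earlier results of these data known. The fit was checked on simulated data.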

Additional observations from a re-analysis of the deposited data

How the results depend on the processing

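The ESR1 rise kept its direction and stayed past the threshold in every setting tried. The count for ESR1 cDNA against control cDNA (3487 as reported) was 1126 when only the 6 arrays compared were fitted (465 higher, 661 lower), 4041 with arrays centred on their medians (882 higher, 3159 lower) and 446 at 1.5-fold or more (257 higher, 189 lower). Leaving out 1 array at a time gave 2299 to 5461 calls, 899 to 2189 higher and 1351 to 3272 lower. Leaving out the 3 arrays of lowest weight, chosen after seeing the data, gave 5524 calls with 2333 higher. For ESR1 cDNA against YAP/TAZ cDNA (111 as reported) the count was 2 with only the 6 arrays (2 higher and 0 lower by limma, with 623 higher and 872 lower at an unadjusted p under 0.05), 3123 with array weights (1144 higher, 1979 lower), 25 at 1.5-fold or more (18 higher, 7 lower), 113 centred (44 higher, 69 lower, or 38.9% higher beside 52.3%) and 4126 without the 3 arrays of lowest weight (1624 higher, 2502 lower). Leaving out 1 array at a time gave 48 to 2947 calls, 28 to 973 higher and 17 to 1974 lower. Array weights gave 4787 calls against control cDNA. No named gene changed direction in a setting if it passed the test there or in the fit as reported. With only the 6 arrays, 17 of 139 named genes lost their call against control cDNA. Against YAP/TAZ cDNA, 15 of 17 named genes lost theirs with only the 6 arrays. There, leaving out any single array other than ESR1 cDNA replicate 1 lost the call of 4 to 6 of the 17. Centring turned the medians of the estrogen response, receptor partner, cell death, mesenchymal, epidermal and stress lists below 0, to between −0.03 and −0.01, while interferon effectors kept 38 to 40 rises and no fall. Whether the replicate numbers pair the arrays is not settled by these values. Deviations of same-numbered ESR1 and control cDNA arrays correlated at 0.54, −0.07 and 0.41, and those of differently numbered ones at −0.58 to 0.38. Between ESR1 and YAP/TAZ cDNA arrays the same-numbered values were −0.38, 0.01 and −0.1. A replicate block gave 3288 calls against control cDNA and 83 against YAP/TAZ cDNA. The cause of these differences was not tested.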

Other observations

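Several large changes lay outside the gene lists, and these genes were chosen after their values were seen. CLDN1, a tight junction protein, had log2 intensities of 10.95, 10.88 and 10.90 in the ESR1 cDNA arrays, against 9.36, 9.44 and 9.37 in the control cDNA arrays (1.52 ± 0.044, adjusted p = 6.4e-13). It read 10.34, 10.44 and 10.47 in the arrays labelled YAP/TAZ cDNA, from which the direct difference of 0.50 passed the test (adjusted p = 3.4e-05). The 3 groups were fully separate for this gene. The complement proteases C1S and C1R rose by 1.65 and 1.48, the ISG15-activating enzyme UBA7 by 1.73 and the interleukin receptor subunit IL7R by 1.80. IL7R read 8.15, 8.11 and 8.45 in the ESR1 cDNA arrays, against 8.37, 8.41 and 8.36 in the arrays labelled YAP/TAZ cDNA, with overlap between the groups.

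ID2, an inhibitor of differentiation factors, read 8.75, 9.06 and 9.63 in the ESR1 cDNA arrays, against 7.52, 7.45 and 6.75 in the control arrays (1.91, adjusted p = 7e-06), with a wide spread in both groups. The long non-coding RNA UCA1 rose by 1.78 and the muscle-type ankyrin repeat gene ANKRD2 by 2.06. Among the falls, TGFB1, the growth factor, read 8.55, 8.19 and 8.11 in the ESR1 cDNA arrays, against 9.16, 9.09 and 9.08 in the control arrays (−0.82, adjusted p = 1.5e-05). The mitotic motor KIF14, not in the mitosis list, fell by 1.04. PDCD4, a translation inhibitor, shows how far replicate 1 could differ: it read 8.59, 7.76 and 7.56 in the ESR1 cDNA arrays, 8.65, 8.63 and 8.76 in the arrays labelled YAP/TAZ cDNA, with 8.80, 8.83 and 8.70 in the control arrays. Its difference from control cDNA was −0.81 with replicate 1 and −1.12 without it.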
